A study of Homo sapiens with 3 samples.

Results

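GUCA2A, GUCA2B, GUCY2C and BEST4 form a small set of intestinal genes around guanylin signalling: both guanylin hormones, their shared receptor and a chloride channel of a type of intestinal cell in which the hormones are also abundant. The members were found by gene name among the probes of 3 oligonucleotide arrays, and they were chosen with their signals and ratios already known. They were selected on the intensity of both channels, the Cy3 over Cy5 ratio on each array and its departure from the sum of the single effects, so that all of their values are given as a description and none is tested. Each gene had 1 probe, and the set made up 4 of the 14529 genes that gave a signal on every array.

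The arrays compared LS174T-tetON-NICD cells after 24 h with TNF-a (50 ng/ml) plus doxycycline (100 ng/ml), with doxycycline alone or with TNF-a alone against non-treated cells of the same line. LS174T is a human colon carcinoma line, and in this derivative doxycycline switches on NICD, the intracellular part of the Notch receptor that acts in the nucleus as a transcriptional activator; TNF-a, written TNF here, is an inflammatory cytokine. Each array carried 1 treated culture in Cy3 and a control in Cy5. Every condition had 1 culture on 1 array, the dyes ran the same way on all 3, and no sample used here came from doxycycline-treated cells without the NICD construct. A difference between arrays therefore has no replicate check, and neither an effect of doxycycline itself nor a dye bias can be told apart from that of NICD.

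Guanylin (GUCA2A) and uroguanylin (GUCA2B) are small peptide hormones that intestinal epithelial cells secrete into the lumen. Both bind GUCY2C, a receptor on the luminal surface that makes cyclic GMP inside the cell; cyclic GMP then opens the chloride channel CFTR and slows sodium uptake, which keeps the gut surface wet. BEST4, a calcium-activated chloride channel of the bestrophin family, marks a rare type of absorptive cell in the human colon and small intestine in which the guanylin hormones are also abundant, and Notch signalling steers the choice between absorptive and secretory cells in this epithelium.

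The windows before the start sites of both hormone genes and of BEST4 are shown because these 3 genes carry the differences described below. GUCA2B and GUCA2A are adjacent genes on chromosome 1, and BEST4 lies on the same chromosome. The RefSeq table of promoters (build GRCh38.p14, 250 bases before to 50 after the start of the gene) held 3 of the 4 members, with GUCA2A at chr1:42164696-42164995 on the minus strand, GUCA2B at chr1:42153160-42153459 on the plus strand and BEST4 at chr1:44788121-44788420 on the minus strand. Capitals mark matches, on either strand, to 6 short motifs. The motif TGGGAA is the core bound by RBPJ, the DNA-binding partner of NICD. Factors of the GATA family bind GATAAG, the letters GTTAAT are part of the site of HNF1, and the CDX factors bind TTTATG. The remaining motifs were the E-box CACGTG and the consensus site of NF-kB, a factor that TNF activates.
GUCA2A: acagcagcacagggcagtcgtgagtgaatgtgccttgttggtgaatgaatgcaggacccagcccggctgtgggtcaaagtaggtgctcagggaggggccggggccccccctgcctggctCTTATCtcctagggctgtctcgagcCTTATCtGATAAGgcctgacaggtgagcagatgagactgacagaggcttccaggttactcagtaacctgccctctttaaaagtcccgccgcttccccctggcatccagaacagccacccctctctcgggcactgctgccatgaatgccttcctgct
GUCA2B: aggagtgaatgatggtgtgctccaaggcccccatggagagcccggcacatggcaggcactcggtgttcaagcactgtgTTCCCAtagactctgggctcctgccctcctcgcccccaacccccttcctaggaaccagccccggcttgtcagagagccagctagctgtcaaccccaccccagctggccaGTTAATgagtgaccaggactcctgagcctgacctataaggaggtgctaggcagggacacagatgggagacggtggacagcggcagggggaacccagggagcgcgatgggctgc
BEST4: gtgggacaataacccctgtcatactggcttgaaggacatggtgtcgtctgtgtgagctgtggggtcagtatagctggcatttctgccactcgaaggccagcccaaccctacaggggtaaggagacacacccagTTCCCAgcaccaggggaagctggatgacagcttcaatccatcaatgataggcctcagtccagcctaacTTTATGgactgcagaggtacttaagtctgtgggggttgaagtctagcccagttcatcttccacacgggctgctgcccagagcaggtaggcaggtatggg
The GUCA2A window held GATAAG 3 times, starting 131 and 106 bases before the start on the opposite strand and 99 bases before it on the same strand. TGGGAA stood on the opposite strand at 172 bases before the start in GUCA2B and at 117 in BEST4. GTTAAT stood at 63 bases before the start of GUCA2B and TTTATG at 49 before that of BEST4. Neither the NF-kB motif nor CACGTG was among the letters of the 3 windows. Of all 35116 promoters of this length in the table, 24.0% held TGGGAA, 6.36% GATAAG, 6.88% GTTAAT, 10.6% TTTATG, 7.26% CACGTG and 5.91% the NF-kB motif, and no matches overlapped. The motifs were chosen with the windows in view, so the matches describe these letters and show no binding.

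By count, 3 of the 4 genes (GUCA2A, GUCA2B and BEST4) were at least 2-fold higher than control on the combined array, where 3.17% of all genes were, and 2 of 4 (GUCA2A and BEST4) with doxycycline, where 1.18% of all genes were. With TNF 0 of 4 were, against 1.80% of all genes. None of the 4 was at least 2-fold lower in any of these comparisons, against 2.13% of all genes on the combined, 0.406% on the doxycycline and 12.3% on the TNF array. The combined treatment was at least 2-fold above doxycycline for 2 of 4 (GUCA2A and GUCA2B) and 1.18% of all genes, and at least 2-fold below it for 0 of 4 and 0.909%. It was at least 2-fold above TNF for 3 of 4 and 14.0% of all genes, and below it for 0 of 4 and 3.29%. Against the sum of the single log2 ratios, GUCA2A and GUCA2B were at least 2-fold above, as were 14.0% of all genes. At least 2-fold below that sum were 0 of 4 and 5.11% of all genes. The genes were selected on these contrasts, so nothing is read from the difference between such shares.

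The arrays differed in signal in a way that touches every comparison with TNF alone. On the TNF array 17869 of 24460 gene probes were above background in the treated channel, against 20465 on the combined and 20156 on the doxycycline array; a signal is above background here when it exceeds the 95th percentile of the 2680 blank spots. Of the 2982 probes that were bright in the controls, 452 were at least 4-fold lower in the treated channel of the TNF array, against 17 on the combined and 4 on the doxycycline array. Between probes of the same gene the log2 ratio had an SD of 0.30 for the combined, 0.25 for the doxycycline and 0.76 for the TNF array. With 1 array per condition, the part of the treatment and that of array quality in these differences were not tested. The control cells carried the epithelial markers (5 of 5 above background in every control, with summed signals of 27497 to 29690), while 1 of 3 fibroblast and 1 of 3 immune markers were above background there. COL1A1, COL1A2, PTPRC and CD3E were at background, whereas DCN read 156 to 190 and CD14 28.0 to 38.1 units over blanks; their part in the results was not tested. Both treatments registered in their known targets. Of 7 Notch targets, 6 were at least 2-fold higher with both treatments, the same number with doxycycline and 0 with TNF. Of 7 TNF targets, 5 were at least 2-fold higher with both treatments, 0 with doxycycline and 7 with TNF.

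GUCA2A, the gene of guanylin, was bright where both treatments were given; the RNA came from whole cultures, so more cells with the transcript and more transcript per cell cannot be told apart. Its spot read 12410 intensity units in cells with TNF and doxycycline, 465 with doxycycline and 62.9 with TNF. The control channels of the same arrays read 165, 41.7 and 42.8 units, and the limits for a signal above background were 69.6, 70.6 and 55.8 in the treated and 31.1, 31.1 and 32.7 in the control channel. The TNF-treated spot thus lay just above its limit, the doxycycline-treated one was clearly above it, and that of the combined treatment was among the brightest, at percentile 98.9 of all gene probes.

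After normalisation, the log2 ratio of GUCA2A was 5.23 on the combined array, a 37.4-fold difference from control and the 7th highest of 14529 genes. With doxycycline alone it was 2.21, or 4.63-fold and 29th highest. With TNF alone it was 0.04. These contrasts were used to choose the gene, so nothing is read from its place among them.

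The combined treatment stood 3.02 log2 units, or 8.09-fold, above doxycycline alone for GUCA2A. That was the 8th highest value of all genes, 1.18% of which were at least 2-fold higher in this comparison. The combined log2 ratio exceeded the sum of the single ratios, 2.25, by 2.98. The size of the step depended on the background: it was 1.62 with the blanks simply subtracted and 1.60 with the authors' deposited log2 values, where the departure was 1.47 and 1.74. On the linear scale the gain over control was 9083 normalised units with both treatments, against a summed gain of 274 with each alone. By departure from the sum GUCA2A ranked 245th, and 14.0% of all genes lay at least 2-fold above their sum.

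**Figure D1:**
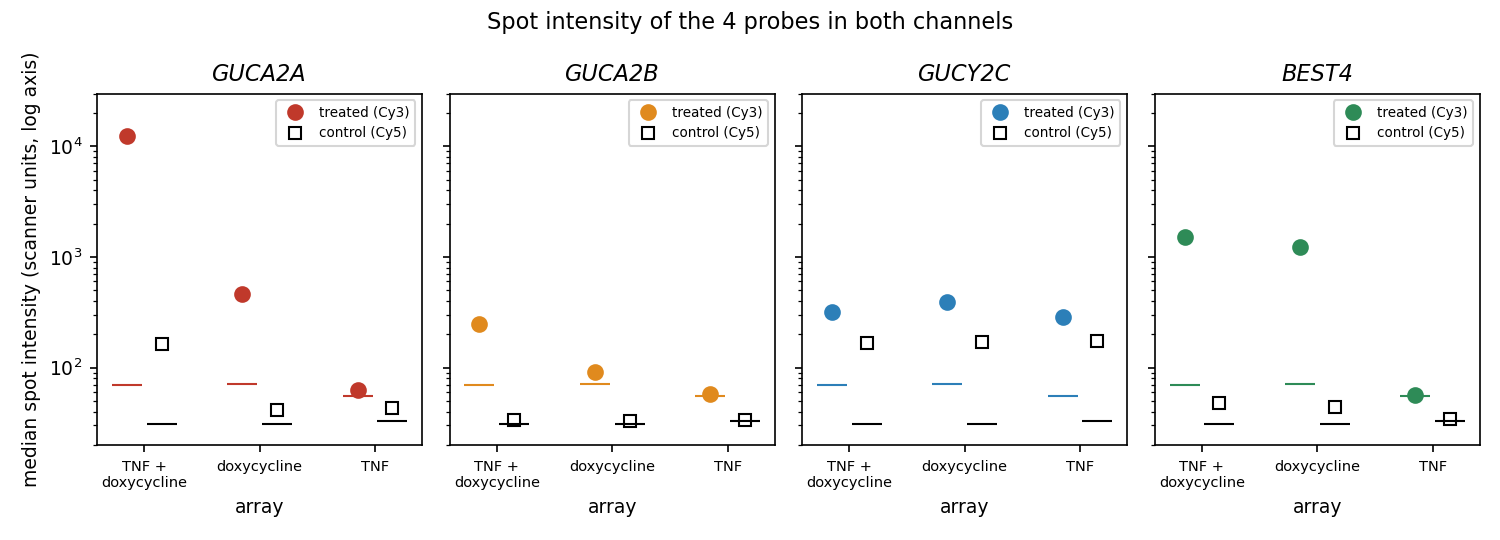
Median spot intensity (scanner units, log axis) of the 4 probes in the treated channel (filled circles) and the control channel (open squares) of each array, with 1 spot per point; the short lines are the limits above which a signal counted as above background. GUCA2A reached 12410 units with TNF plus doxycycline, BEST4 1502 and 1221 units with and without TNF under doxycycline, GUCA2B 247 units with both treatments, and GUCY2C stayed between 287 and 391 units in the treated channel.

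The control channel of GUCA2A was not the same on the 3 arrays. Over the mean of the blanks it read 137 units beside the combined treatment, 13.8 beside doxycycline and 13.5 beside TNF, a 10.1-fold range between controls that carry the same label. For comparison, normalised control levels differed between the combined and TNF arrays with an SD of 0.14 log2 units over all genes, and 5 of 14529 genes differed by 2-fold or more, whereas GUCA2A differed by 1.83. Probes were then taken that exceeded 1000 units over blanks in the treated channel of the combined array. They also had to be under 20 units in the control of the TNF array, which favours higher controls on the other arrays. The control reading was higher than on the TNF array in 16 of 16 such probes, by a median of 0.567% of the treated signal. The 16 include GUCA2A, with a surplus of 0.999%, and BEST4, with 1.02%. On the doxycycline array 5 of 5 such probes, BEST4 among them, had a higher control. The part of this shift in the ratios was not tested. A brighter control lowers the ratio on its own array: with the mean of the 3 controls in place of the control on the same array, the log2 ratio of GUCA2A was 6.41 with both treatments, 1.67 with doxycycline and -0.61 with TNF. That mean includes the brighter control of the combined array, which lowers the doxycycline and TNF ratios. In the treated channels alone, over blanks, GUCA2A read 12346 units with both treatments, 30.9 times the 400 units with doxycycline.

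GUCA2B, the gene of uroguanylin, was dim in the control cells and higher with both treatments together. Its spot read 247 units with TNF and doxycycline, 91.9 with doxycycline and 57.8 with TNF. In the controls of these arrays it read 33.4, 33.1 and 33.9 units, all within 3 units of the limit for a signal above background. The combined value stood apart from the other treated values, and the control values were alike.

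The log2 ratio of GUCA2B was 1.53 on the combined array, or 2.88-fold, and ranked 200th of 14529. It was 0.25 on the doxycycline array and 0.06 on the TNF array, both under 2-fold. The combined treatment stood 1.27 log2 units above doxycycline alone (2.42-fold, 100th highest) and 1.21 above the sum of the single ratios. By departure from the sum GUCA2B ranked 1620th, and 14.0% of all genes lay at least 2-fold above their sum. Over blanks the treated channel read 183 units with both treatments, 6.89 times the 26.6 units with doxycycline and 28.6 times the 6.41 units with TNF. The control of GUCA2B differed by a factor of 1.19 between arrays, against 10.1 for GUCA2A. Over blanks it read 5.47, 5.20 and 4.59 units on the combined, doxycycline and TNF arrays. With a treated signal this dim, a control surplus in proportion to it would be small. Whether GUCA2B carried a control shift like that of GUCA2A was not tested. The offset of the background correction draws ratios this close to background towards 0. With the blanks simply subtracted, the log2 ratio of GUCA2B was 4.12 on the combined and 1.41 on the doxycycline array, past 2-fold on both. With the scanner's local background it was 1.02 on the combined array, and the step from doxycycline to the combined treatment was 0.92, under 2-fold.

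Both hormone genes thus had their highest ratio with the combined treatment. The ratios of GUCA2B with doxycycline and with TNF differed by less than the SD between probes of 1 gene, so their order is not resolved. Their measured neighbours on chromosome 1 stayed under 2-fold on every array. HIVEP3, a zinc finger gene on the GUCA2B side, had log2 ratios of 0.09, -0.06 and -0.07 on the combined, doxycycline and TNF arrays. FOXJ3, a forkhead gene next to GUCA2A, had 0.09, -0.01 and 0.03, and RIMKLA beyond it had -0.40, -0.10 and -0.03. LOC128125817, which lies between HIVEP3 and GUCA2B, was not among the probes.

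GUCY2C, the receptor of both hormones, was above the blanks in the control cells and stayed within 2-fold of control on every array. Its spot read 315 units with TNF and doxycycline, 391 with doxycycline and 287 with TNF. The controls read 166, 171 and 173 units. These control readings differed by a factor of 1.04 over blanks, the narrowest range of the 4 genes.

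The log2 ratio of GUCY2C was 0.02 with both treatments (-0.04 to 0.69 under other settings), 0.29 with doxycycline and 0.57 (1.48-fold) with TNF. The combined ratio lay below the sum of the single ratios by 0.84 log2 units, where 5.11% of all genes lay at least 2-fold below theirs. Its value on the TNF array was smaller than the SD of 0.76 between probes of 1 gene there. The ratio on the doxycycline array turned to -0.051 with the scanner's local background, and the order of the 3 arrays is thus not resolved by 1 probe on 1 array each.

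BEST4, the chloride channel, was high with doxycycline whether or not TNF was present. Its spot read 1502 units with TNF and doxycycline, 1221 with doxycycline and 56.8 with TNF, against 48.0, 44.0 and 34.7 units in the controls. The readings under doxycycline were alike and far above the limit, while both channels of the TNF array lay within 2 units of it.

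The log2 ratio of BEST4 was 3.64 on the combined array (12.5-fold, 27th highest) and 3.45 on the doxycycline array (10.9-fold, 8th highest). It was 0.02 with TNF alone. The combined treatment exceeded doxycycline by 0.20 log2 units, less than the SD of 0.39 between probes of 1 gene for this comparison and between -0.04 and 0.63 under other settings, and exceeded the sum of the single ratios by 0.17. In the treated channels over blanks the factor was 1.24. The control of BEST4 read 20.02, 16.1 and 5.30 units over blanks on the combined, doxycycline and TNF arrays, a 3.78-fold range, and with the mean of the 3 controls the ratios were 3.83, 3.55 and -0.26. The step from doxycycline to the combined treatment was thus 0.20 for BEST4 and 3.02 for GUCA2A, while both were near background with TNF alone.

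The local background was high beside several spots. For GUCY2C it read 232, 357 and 153 units around the treated spots of the combined, doxycycline and TNF arrays, against spot readings of 315, 391 and 287, and 126, 155 and 122 around the control spots. It read 3592 units around the treated GUCA2A spot of the combined array, and 808 and 855 units around the treated BEST4 spots of the combined and doxycycline arrays, against 48.3 units around that of the TNF array. Taking it as background in place of the blanks gave GUCA2A log2 ratios of 4.66 on the combined and 1.51 on the doxycycline array, and BEST4 ratios of 2.39 and 1.76. All 4 stayed past 2-fold.

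**Figure D2:**
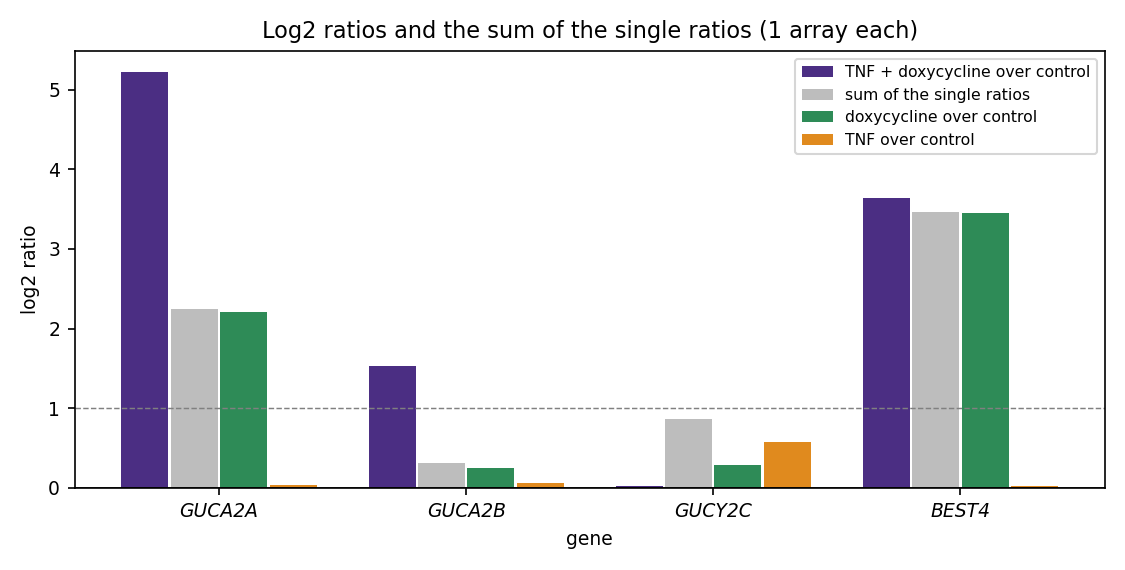
Normalised log2 ratio to control of each gene on the combined, doxycycline and TNF arrays, with the sum of the single ratios in grey beside the combined value; each bar is 1 array with no error bar, and the dashed line marks 2-fold. The combined bar stands 2.98 above the grey one for GUCA2A and 1.21 for GUCA2B, 0.17 above it for BEST4, and 0.84 below it for GUCY2C. Of all genes, 14.0% lay at least 2-fold above their sum and 5.11% at least 2-fold below.

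**Figure D3:**
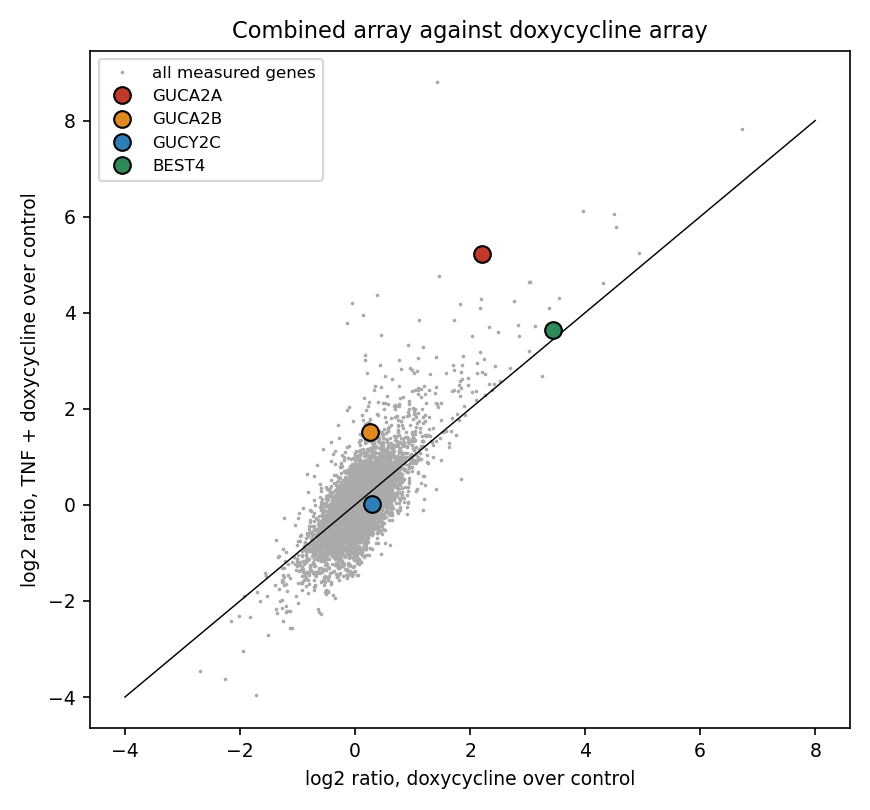
Log2 ratio on the combined array (vertical) against that on the doxycycline array (horizontal) for all 14529 measured genes (grey) and the 4 members, with the line of equal values. GUCA2A and GUCA2B lie 3.02 and 1.27 above the line, BEST4 0.20 above it and GUCY2C 0.27 below it.

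Few of the genes compared lay near GUCA2A or BEST4 in their ratios. Likeness was measured as the Euclidean distance over the 3 log2 ratios, among 13060 genes with both channels above background and no saturated spot. This filter leaves out genes at background on any array, such as SPIB, described below. SPIB had log2 ratios of 4.70, 3.04 and 0.04 on the combined, doxycycline and TNF arrays. The counts within a distance of 1 also depend on the size of the ratios and do not measure how rare a pattern is. Nearest to GUCA2A were LAMA3, a laminin subunit of the epithelial basement membrane, at a distance of 0.95, CAPN10, a calcium-dependent protease, at 1.05 and EMP1, an epithelial membrane protein, at 1.26, and 1 gene lay within a distance of 1. LAMA3 had log2 ratios of 4.28, 2.20 and 0.04 on the combined, doxycycline and TNF arrays. Nearest to BEST4 were HES5, a repressor and classic Notch target, at 0.39, IGFBP3, which binds insulin-like growth factors, at 0.45 and KRT17, a keratin of stratified epithelia, at 0.66, with 5 genes within 1. HES5 had 3.72, 3.13 and -0.20. GUCA2B had DEPP1, SDCBP and IFIT2 nearest, at 0.11 to 0.15, with 618 genes within 1. GUCY2C had ALG5, USP38 and PROM2 nearest, at 0.03 to 0.05, and 8679 genes within 1. For ratios this small, that distance takes in genes near 0 and does not resolve a pattern.

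BEST4-positive cells of the human intestine have a set of known markers, and 19 of 21 such genes were on the arrays. Of the 16 measured, 6 were at least 2-fold higher than control on the combined array and 4 on the doxycycline array, with 0 lower on both and 0 past 2-fold on the TNF array. Without BEST4, GUCA2A and GUCA2B the counts were 3 and 2 of 13, with a median log2 ratio of 0.11 on the combined and 0.03 on the doxycycline array, against 0.0037 and 0.011 over all genes, of which 3.17% and 1.18% were at least 2-fold higher. Of all genes, 2.13% were at least 2-fold lower on the combined and 0.406% on the doxycycline array. On the TNF array 1.80% were higher and 12.3% lower. Most of the list was near 0, and the counts rest on a few genes.

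CTSE, the gene of the protease cathepsin E, had log2 ratios of 3.84, 1.72 and 0.84 on the combined, doxycycline and TNF arrays, and its combined ratio was 1.29 above the sum. HES4, a Notch target and repressor, had 2.51, 2.41 and -0.59. MEIS1, a homeobox factor, had 1.30, 0.47 and 0.65. CTSE thus had the larger step from doxycycline to the combined treatment, 2.13 log2 units, and HES4 the smaller, 0.10. SPIB, an Ets-family transcription factor of these cells, was not counted because both of its channels were below background on the TNF array, and it is named here after its values were seen. Its treated signal over blanks was 8558 units with both treatments and 873 with doxycycline, against control signals of 137 and 18.5, giving log2 ratios of 4.70 and 3.04; its control was higher where its treated signal was brightest, as for GUCA2A. Counting genes with signal on the arrays of each comparison only, which lets in SPIB and CA7 among others, gave 7 markers at least 2-fold higher on the combined and 5 on the doxycycline array. CA7, whose values are given below with the transport genes, was under 2-fold on both. OTOP2, a proton channel and known marker of these cells, had ratios of 0.11, 0.04 and -0.21, all under 2-fold; it too is named after its values were seen.

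**Figure D4:**
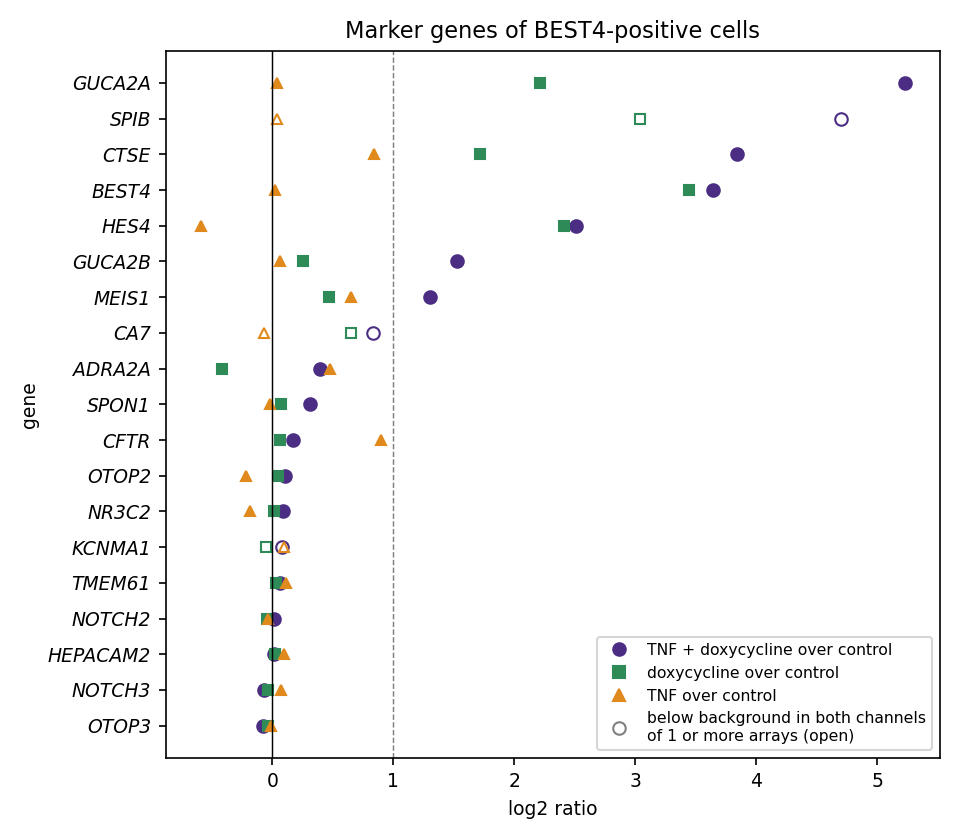
Log2 ratio to control of the 19 markers of BEST4-positive cells on the arrays, ordered by the combined ratio; circles are the combined, squares the doxycycline and triangles the TNF array, open symbols mark genes below background in both channels of at least 1 array, and the dashed line marks 2-fold. GUCA2A, SPIB and CTSE have combined values well to the right of their doxycycline values, BEST4 and HES4 have both close together, and the 11 genes from ADRA2A down are under 2-fold on every array.

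The measured genes in the rest of the cyclic GMP pathway were mostly under 2-fold from control. Of 37 listed genes, 36 were on the arrays and 20 were measured. Without the members, 0 of 17 were at least 2-fold higher and 1 was lower on the combined array, while 1 was higher and 0 were lower on the doxycycline array. For all genes the shares higher were 3.17% and 1.18%, and the shares lower 2.13% and 0.406%. The gene higher with doxycycline was PDE9A, a phosphodiesterase that breaks down cyclic GMP, with a log2 ratio of 1.85 on the doxycycline array, 0.54 on the combined and -0.11 on the TNF array. Its combined ratio lay 1.20 below the sum of the single ones, the opposite side from GUCA2A. The gene lower on the combined array was NOS3, a nitric oxide synthase, with -1.17, -0.91 and -1.21. PRKG2, the cyclic GMP-dependent kinase of the intestine, and its relative PRKG1 were below background in the controls of all 3 arrays. Several measured genes were also dim: PDE1A, GUCY1A2 and CNGB1 controls read 2.07, 3.97 and 5.85 units over blanks on the combined array. The offset draws such ratios towards 0, so they do not show that these genes were unchanged. PDE10A, at background on the TNF array, was not counted. Its treated signal was 32.0 units with both treatments and 23.4 with doxycycline, against controls of 1.00 and 2.01.

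Among the transport genes downstream of cyclic GMP, no measured gene was at least 2-fold higher under doxycycline or the combined treatment. Of 26 listed, 22 were on the arrays and 18 were measured, with 0 higher and 1 lower on the combined array and 0 past 2-fold on the doxycycline array; their median log2 ratios were -0.20 and -0.07. For comparison, the combined array had 3.17% of the 14529 genes past 2-fold upward and 2.13% downward, and the doxycycline array 1.18% and 0.406%. Shares this low leave few such genes to be seen among 18, so nothing is read from the counts of 0. With TNF alone 4 of the 18 were lower and 0 higher, against 12.3% of all genes lower and 1.80% higher. The lower gene was KCNN4, a calcium-activated potassium channel, with -1.01 on the combined, -0.33 on the doxycycline and -1.99 on the TNF array, the last from a treated signal of 9.47 units over blanks. CFTR, the chloride channel opened by cyclic GMP signalling, had 0.18, 0.07 and 0.90 and is named for that role. CA7, also a BEST4 cell marker, was not counted because both of its channels were below background on the TNF array. It is named after its values were seen. Over blanks its treated signal was 71.5 units with both treatments and 47.5 with doxycycline, against controls of 2.13 and 1.05. Its log2 ratios were 0.83 and 0.65, and the offset draws ratios with such dim controls towards 0. In the bestrophin family BEST3 was measured beside BEST4, with -0.05, 0.05 and 0.01, while BEST1 and BEST2 were too dim.

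Markers of absorptive colonocytes and factors of the intestinal epithelium held few measured genes past 2-fold under doxycycline or the combined treatment. Of 14 measured colonocyte markers other than the hormones, 0 were past 2-fold on the combined array and 1 was higher on the doxycycline array, namely FABP1, a fatty acid binding protein, with log2 ratios of 0.30, 1.07 and 0.12 on the combined, doxycycline and TNF arrays. With TNF, 0 were higher and 2 lower. Of 11 measured epithelial transcription factors, 1 was at least 2-fold higher on the combined array and 0 on the doxycycline array, with 0 lower on both. It was HNF4G, a nuclear receptor of enterocytes, with 1.82, 0.52 and -1.24; its treated signal on the TNF array was 12.7 units over blanks. With TNF, 0 of the 11 were higher and 3 lower. SPIB is also on this list but was not counted, because both of its channels were below background on the TNF array. Its log2 ratios of 4.70 on the combined and 3.04 on the doxycycline array exceeded those of the measured factors. Of all genes, 3.17% were higher and 2.13% lower on the combined array. These shares were 1.18% and 0.406% on the doxycycline and 1.80% and 12.3% on the TNF array.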

How the data were processed

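Total RNA of the treated and control cells was amplified, labelled through amino allyl aRNA and hybridised to 2-colour oligonucleotide arrays, per the labels. The deposited scanner columns give, for every spot, a median intensity per channel on a linear scale, joined from scans at 3 gains per the file headers. The authors' series table holds log2 ratios, all 19605, 19535 and 18330 of which (combined, doxycycline and TNF arrays) were matched within 0.001 by log2 of Cy3 over Cy5 above the blanks, less the median of the array, which settled their direction as treated over control. No array software or genome build is named in the labels or file headers.

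The 5%-trimmed mean of the blanks was taken as background, followed by normexp (saddle-point fit, offset 50) and loess within each array with limma 3.58.1 in R 4.3.3. Kept were 16336 probes that on each array had a signal above background in at least 1 channel and no bad mark, averaged per gene after symbols were updated through a RefSeq gene table (17238 kept as given, 2899 updated, 99 unmatched, 4224 probes with none). A difference of 2-fold or more was counted. With 1 array per condition no test could be made, and the small number of arrays limits precision. Distances, counts and figures used Python 3.11.15, numpy 2.4.6, pandas 2.3.3 and matplotlib 3.10.9. The steps were tested on simulated arrays.

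The 4 genes, the gene lists, the motifs and the comparisons were chosen with earlier results of these data known. From each list, genes at least 2-fold from control on the doxycycline or combined array were named, up to 6 by the size of the combined ratio; for each of the 4 genes the 3 nearest in pattern were named. The position of each probe in its transcript is not known here. Alternatives covered the background, offset, normalisation, filter, control value, scale and the authors' own values.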

Additional observations from a re-analysis of the deposited data

Results flagged for a closer look

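GUCY2C was the gene whose single and combined treatments pointed to opposite sides. The TNF effect on it was a log2 ratio of 0.57 without doxycycline, against -0.27 with doxycycline (combined minus doxycycline array). The doxycycline effect was 0.29 without TNF, against -0.54 with TNF (combined minus TNF array). The sign was not stable: combined minus doxycycline was 0.026 with the scanner's local background, and combined minus TNF was 0.13 with no normalisation within arrays and 0.090 in the treated channel alone. The values -0.27 and -0.54 are also smaller than the SDs of 0.39 and 0.82 between probes of 1 gene for these comparisons. Both are the same departure from the sum seen from either side, each value comes from 1 array, and the difference was not tested.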

How the results depend on the processing

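Among the alternatives tried, GUCA2A kept at least a 2-fold higher ratio on the combined array (log2 4.66 to 6.41) and the doxycycline array (1.51 to 4.05), and for the combined treatment over doxycycline (1.60 to 4.95) and over the sum (1.47 to 5.35). BEST4 did so on the combined (2.39 to 5.29) and doxycycline arrays (1.76 to 5.33), and its step from doxycycline to the combined treatment stayed under 2-fold (-0.04 to 0.63). GUCA2B stayed past 2-fold on the combined array (1.02 to 4.16), but not in every setting over doxycycline (0.92 to 2.78) or over the sum (0.87 to 2.10). GUCY2C stayed below its sum (-1.16 to -0.75).

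The settings that moved a value by more than the SD between probes of 1 gene were these, and the cause was not tested. In the sentences that follow, the values are log2 and each gene's come in the order given. With no background subtraction, GUCA2A was 2.55 on the doxycycline array, GUCA2B 1.85 on the combined array, and BEST4 4.06 and 3.89 on the combined and doxycycline arrays. With the scanner's local background, the values on the combined and doxycycline arrays were 4.66 and 1.51 for GUCA2A and 2.39 and 1.76 for BEST4, with 1.02 for GUCA2B on the combined and -0.051 for GUCY2C on the doxycycline array. BEST4 was then 0.63 over doxycycline and 2.37 over TNF. With an offset of 16, GUCA2A was 2.99 with doxycycline and 2.504 for the combined treatment over doxycycline. GUCA2B was 2.35 and 0.51 on the combined and doxycycline arrays and 1.84 between them, and BEST4 was 4.41 and 4.29. With the blanks subtracted and no normexp, the combined and doxycycline arrays gave 5.67 and 4.05 for GUCA2A, 4.12 and 1.41 for GUCA2B, and 5.29 and 5.33 for BEST4. GUCA2A was then 1.62 over doxycycline and 1.47 over the sum, GUCA2B 2.71 over doxycycline and 3.48 over TNF, and BEST4 5.11 over TNF. With median centring, GUCA2A was 5.67 on the combined array, and the combined and doxycycline arrays gave 0.33 and 0.61 for GUCY2C and 4.00 and 3.78 for BEST4. With no normalisation within arrays they gave 6.03 and 2.77 for GUCA2A, 2.03 and 0.51 for GUCA2B, 0.69 and 0.96 for GUCY2C and 4.35 and 4.13 for BEST4, and GUCA2A was 6.04 over TNF. The median of all genes was then 0.49 on both arrays, against 0.13 and 0.14 with median centring. With the authors' deposited log2 values, the combined and doxycycline arrays gave 5.59 and 4.00 for GUCA2A, 4.16 and 1.49 for GUCA2B, and 5.26 and 5.30 for BEST4. GUCA2A was 1.60 over doxycycline and 1.74 over the sum, GUCA2B 2.67 over doxycycline, 3.59 over TNF and 2.10 over the sum, and BEST4 5.15 over TNF. With the mean of the 3 controls, GUCA2A was 6.41 and 1.67 on the combined and doxycycline arrays, 4.75 over doxycycline, 7.02 over TNF and 5.35 over the sum. The brighter control of the combined array enters that mean and so adds to the last value. In the treated channel alone over blanks, an alternative chosen after seeing the data, the combined treatment over doxycycline was 4.95 for GUCA2A and 2.78 for GUCA2B, and over TNF 10.06, 4.84 and 8.05 for GUCA2A, GUCA2B and BEST4.

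The number of genes at least 2-fold from control ranged over these settings from 369 to 2463 higher and 49 to 878 lower on the combined array (460 and 310 in the main setting), and from 151 to 2037 higher and 8 to 299 lower on the doxycycline array (171 and 59). On the TNF array it ranged from 262 to 1896 higher and 1181 to 3525 lower (262 and 1790). The combined treatment over doxycycline gave 166 to 601 higher and 131 to 557 lower (172 and 132), and the combined over TNF 1390 to 3951 higher and 173 to 2054 lower (2036 and 478). Over the sum, 1390 to 3879 genes lay above and 728 to 2628 below (2032 and 742). Of 792 recomputed counts and medians of the gene lists, 686 stayed close, 105 moved and 1 reversed, the median of the bestrophin family with doxycycline, which was -0.013 without the filter on dim probes, where BEST1 and BEST2 enter. Normalising between arrays leaves ratios within an array as they are by construction. No paired analysis was possible because each condition had 1 replicate, and for the same reason no array could be left out in turn. Precision is limited where a channel is near background, as for GUCA2B in all controls and for GUCA2A and BEST4 on the TNF array.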
